A study of Mus musculus with 12 samples.

Results

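The genes described here are 7 mouse genes that act in the repair of DNA strand breaks, mismatched bases and bulky lesions: Nbn, Mre11a, Chek2, Palb2, Xrcc4, Msh3 and Xpa. They were chosen by their copy number values in these tumours, out of 20281 autosomal genes on the array, and all 7 had values on every array. The level of a gene was the mean log2 ratio of tumour DNA over reference DNA across the probes that carry its name, and the local level took every probe within 500 kb of it. Since these log2 ratios and the calls made from them led to the choice, they are given as a description with no test.

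DNA copy number was read in 12 mouse tumours, 1 array each, by comparative genomic hybridisation against normal kidney DNA of C57BL/6 mice. The 4 renal cell carcinomas all came from mice given ferric nitrilotriacetate (Fe-NTA), a chelate whose iron gives rise to oxygen radicals in kidney tubules, and they were 3 Mutyh knockouts (KO1080, KO1097 and KO1134) and 1 wild type (WT1179). Of the 8 malignant lymphomas, 2 came from treated knockouts (KO1077 and KO1111), 1 from an untreated knockout (KO1414), 3 from treated wild types (WT1113, WT1114 and WT1121) and 2 from untreated wild types (WT1405 and WT1420). Treated groups started with 20 male mice, which received Fe-NTA by intraperitoneal injection for 12 weeks, with 5 injections in each. Doses carried 3 mg of iron per kg of body weight at first and 5 mg during the last 11 weeks, and mice were killed at about 120 weeks. Mutyh encodes a glycosylase that removes adenine paired with oxidised guanine. All carcinomas came from treated mice, so type and treatment overlap, and no untreated carcinoma was analysed here.

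Double strand breaks are sensed by a complex of Mre11, Rad50 and nibrin, the product of Nbn, which holds the broken ends and activates the kinase ATM. ATM passes the signal to the checkpoint kinase Chk2, encoded by Chek2, and the break is then rejoined either directly, with the help of the Xrcc4 protein, or by copying from the sister chromatid, for which Palb2 joins Brca1 to Brca2. Mismatch repair through Msh3 removes small loops left by DNA replication, and Xpa checks bulky lesions during nucleotide excision repair. Copy number of a gene says nothing by itself of how much protein is made.

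The genes were read by 57 probes of 60 bases. The middle probe of each gene is shown, since the levels below rest on such probes. Also shown are the 2 probes that read at least 0.4 from the mean of their gene in at least 1 tumour. Sequences and mm9 positions are those of the array files, 5′ to 3′, and the strand is not given in the sources used here.
Nbn, chr4:15913246-15913305: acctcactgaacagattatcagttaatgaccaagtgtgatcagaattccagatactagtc
Mre11a, chr9:14610902-14610961: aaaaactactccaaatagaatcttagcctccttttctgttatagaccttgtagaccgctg
Chek2, chr5:111287450-111287509: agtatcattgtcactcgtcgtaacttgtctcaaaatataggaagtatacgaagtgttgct
Palb2, chr7:129260535-129260594: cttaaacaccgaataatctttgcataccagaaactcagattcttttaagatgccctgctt
Xrcc4, chr13:90116080-90116139: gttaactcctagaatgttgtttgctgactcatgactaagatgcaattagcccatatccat
Msh3, chr13:93046150-93046209: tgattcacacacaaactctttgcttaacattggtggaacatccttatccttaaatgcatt
Xpa, chr4:46205838-46205897: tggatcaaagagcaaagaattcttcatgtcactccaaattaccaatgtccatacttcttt
Xrcc4, apart from its gene, chr13:90146433-90146492: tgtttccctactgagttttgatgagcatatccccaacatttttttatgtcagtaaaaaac
Msh3, apart from its gene, chr13:93087886-93087945: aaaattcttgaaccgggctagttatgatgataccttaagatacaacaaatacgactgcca

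The labels were checked on the DNA itself. The probe of Mutyh at chr4:116490496-116490555 read between -3.21 and -2.39 in the 6 knockout tumours and between -0.75 and 0.14 in the 6 wild-type tumours. The other Mutyh probe, at chr4:116480656-116480715, did not part the genotypes, at -0.58 to 0.26 in knockout and -0.82 to 0.20 in wild-type tumours. Antigen receptor loci, which lymphoid cells cut and rejoin, held losses of under 5 Mb at none of 4 loci in each carcinoma, and at 2 to 4 of 4 loci in 7 of the 8 lymphomas. The exception was WT1405, with 0 loci. The arrays lay on 3 slides of 4, and slide 1 held exactly the 4 carcinomas, so that tumour type and slide 1 cannot be told apart. The lymphomas WT1113 and WT1114, both on slide 2, shared 4 segment boundaries that no other tumour had, against at most 1 in each of the 27 other pairs of lymphomas.

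Each chromosome was divided into segments of constant level, and the call of a loss or a gain needed a segment mean at least 0.25 below or above 0 over at least 5 probes. A deletion of 1 of 2 copies in every cell would read -1 and 1 extra copy would read 0.58. In a tumour with normal cells mixed in, a change present in fewer cells and a shallower change cannot be told apart. Across the 7 genes and 12 tumours, 13 losses and 3 gains were called. All 13 losses lay in carcinomas, where 5 of the 7 genes were lost at least once, beside 42.9% of all genes. In the lymphomas 0 of the 7 genes were lost, beside 1.1% of all genes. Gains took in 1 of the 7 in a carcinoma and 1 in a lymphoma, beside 6.25% and 33.6% of all genes. Over all 12 tumours 5 of the 7 were lost at least once, beside 43% of all genes, 2 were gained, beside 36.8%, and all 7 were called in 1 direction or the other, beside 75.3%. These shares are printed for scale only, because the same values chose the genes. At the threshold itself, the nearest called segment was that of Nbn and Xpa in KO1134 at -0.30, and the nearest segments without a call were those of Chek2 in WT1405 at 0.21 and in KO1414 at -0.20.

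**Figure D1:**
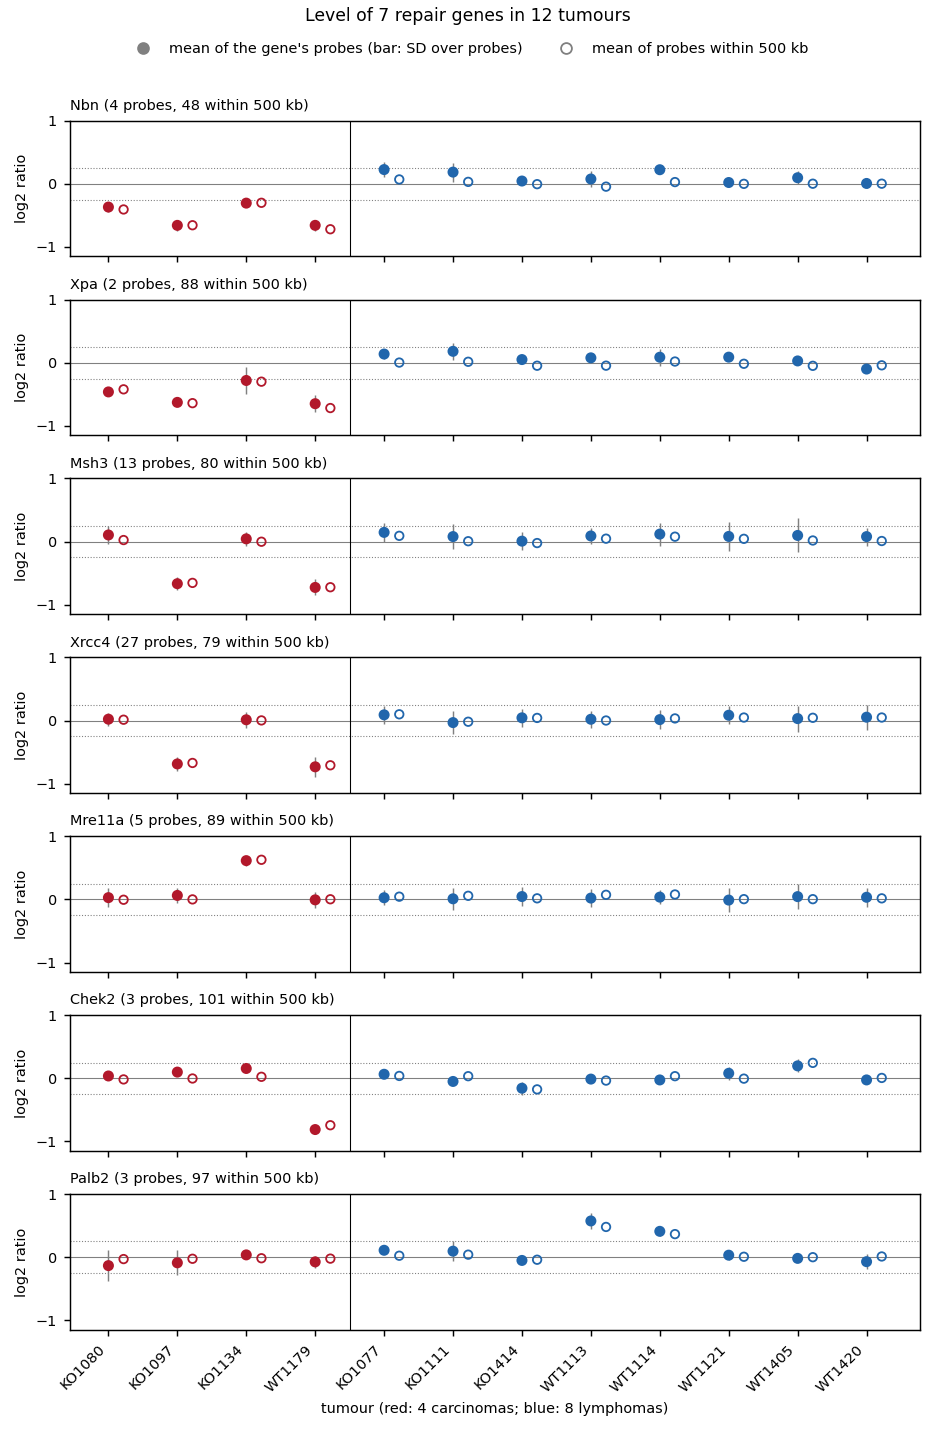
The 7 panels plot the log2 ratio of each gene (filled points, bars for the SD over its probes) and of the probes within 500 kb (open points) in the 4 carcinomas on the left and the 8 lymphomas on the right, with dotted lines at -0.25 and 0.25. Nbn and Xpa lie below -0.25 in each of the 4 carcinomas, Mre11a stands above the line only in KO1134 and Palb2 only in WT1113 and WT1114.

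Nbn, the sensor subunit, was read by 4 probes at chr4:15886147-15918927. Carcinoma KO1080 read -0.37, KO1097 read -0.66, KO1134 read -0.31 and WT1179 read -0.66, and in the lymphomas it ran over 0.01, 0.09 and 0.23 (lowest, median and highest). The groups did not overlap, and 10.3% of all genes had each carcinoma below each lymphoma. The mean was -0.50 ± 0.19 (SD, n = 4) in carcinomas and 0.11 ± 0.09 (SD, n = 8) in lymphomas. The 4 probes of the gene did not order KO1097 and WT1179, where they spanned -0.77 to -0.56 and -0.75 to -0.55. Nor did they order KO1080 and KO1134, where they spanned -0.49 to -0.28 and -0.34 to -0.24. The segments around the gene read -0.42 in KO1080 and -0.30 in KO1134, so the loss was deeper in KO1080. With each array centred on its median they read -0.40 and -0.24. The segments of KO1097 and WT1179 read -0.67 and -0.71. The local level over 48 probes was -0.52 ± 0.20 in carcinomas and 0.01 ± 0.03 in lymphomas. Nbn was called lost in 4 of 4 carcinomas and 0 of 8 lymphomas, a pattern that 8.17% of all genes shared.

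The loss of Nbn was part of a long loss of chromosome 4 in each carcinoma. The lost stretch around the gene measured 152 Mb for KO1080, 103 Mb for KO1097, 150 Mb for KO1134 and 149 Mb for WT1179, and it held 601 named genes in KO1097 and between 1362 and 1384 in the other 3. In KO1097 further losses followed beyond a short segment without a call, so that 25 of its 26 segments on the chromosome were lost. No segment boundary lay within 9585 kb of the gene in the carcinomas. In KO1134 the segment read -0.30 when the array was centred on its mode and -0.24 when it was centred on its median, where the call was lost. Under median centring 0.0444% of all genes were called lost in KO1134, against 31.9% under mode centring.

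Own probes of several genes read slightly above their neighbours in the lymphomas. For Nbn, its own probes exceeded the other probes within 500 kb in 2 of 4 carcinomas, where the difference was -0.01 to 0.07, and in 8 of 8 lymphomas, where it was 0.00 to 0.21. Msh3 exceeded its neighbours in 8 of 8 lymphomas, by 0.04 to 0.10, and Xpa in 7 of 8. The level of Nbn went with the slide, at 0.08 to 0.23 in the 4 lymphomas of slide 2 and 0.01 to 0.10 in the 4 of slide 3, and Xpa averaged 0.12 ± 0.05 on slide 2 and 0.02 ± 0.08 on slide 3 (SD, n = 4 each). The part of the slide in these levels was not tested. Slide 2 held the 2 treated knockouts and 2 of the 3 treated wild types.

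Mre11a, which encodes the nuclease of the same complex, was read by 5 probes at chr9:14589637-14632624. Carcinoma KO1080 read 0.03, KO1097 read 0.06, KO1134 read 0.61 and WT1179 read -0.01. In the lymphomas it lay between -0.01 and 0.05 with a median of 0.03. KO1134 alone stood above the other 11 tumours, and each of its 5 probes read at least 0.48. The mean was 0.17 ± 0.29 (SD, n = 4) in carcinomas and 0.03 ± 0.02 (SD, n = 8) in lymphomas. The gain in KO1134 covered chr9:12474601-16251666, a segment of 3.78 Mb with 257 probes and 36 named genes at 0.62. In that tumour 0.952% of all genes were called gained.

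The gained segment stood between a stretch at 0.23 towards the start of the chromosome and a stretch at -0.29 over the remaining 108 Mb. The gain was kept under both centrings, at 0.62 and 0.69. Repair genes on the lower side of the same chromosome read -0.29 for Atm, the kinase that the Mre11 complex activates, -0.35 for Atr and -0.42 for Atrip, a kinase and its partner that answer single-stranded DNA, and -0.29 for the checkpoint kinase gene Chek1. Topbp1, an activator of Atr, read -0.31. These genes of the lower side were called lost with mode centring but not with median centring. In KO1134 these subunit genes of the break sensor lay on opposite sides of 0, at 0.61 for Mre11a and -0.31 for Nbn.

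Chek2, which encodes the checkpoint kinase downstream of ATM, was read by 3 probes at chr5:111277880-111296595. Carcinoma KO1080 read 0.04, KO1097 read 0.10, KO1134 read 0.16 and WT1179 read -0.81, and all 3 probes in WT1179 lay between -0.89 and -0.74. In the lymphomas it ran over -0.16, -0.02 and 0.20 (lowest, median and highest), with the lowest in KO1414 and the highest in WT1405. The mean was -0.13 ± 0.46 (SD, n = 4) in carcinomas and 0.01 ± 0.11 (SD, n = 8) in lymphomas, so the carcinoma mean rests on 1 tumour. In WT1179 15.2% of all genes were called lost.

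The Chek2 loss covered chr5:109005444-116435844, 7.43 Mb with 606 probes and 123 named genes at -0.73. A short segment without a call parted it from another lost piece towards the start of the chromosome. In WT1179 chromosome 5 held 26 boundaries and 27 segments, of which 11 were lost, at -0.82 to -0.67, 7 were gained, at 0.43 to 0.56, and 9 were not called, at -0.21 to 0.10. The lost pieces added up to 66.5 Mb, the gained pieces to 38.3 Mb and the others to 43.9 Mb. Repair genes elsewhere on the chromosome lay on pieces of different kinds. On gained pieces were Pms2, a mismatch repair subunit, at 0.60, and Gtf2h3, a subunit of the TFIIH repair factor, at 0.36. Brca2, the recombination mediator to which Palb2 binds, was gained as well, at 0.42. The excision repair gene Uvssa lay on a lost piece at -0.63, and Xrcc2 at -0.03 and Helq at 0.02 were not called. In the other 11 tumours chromosome 5 held at most 8 boundaries.

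**Figure D2:**
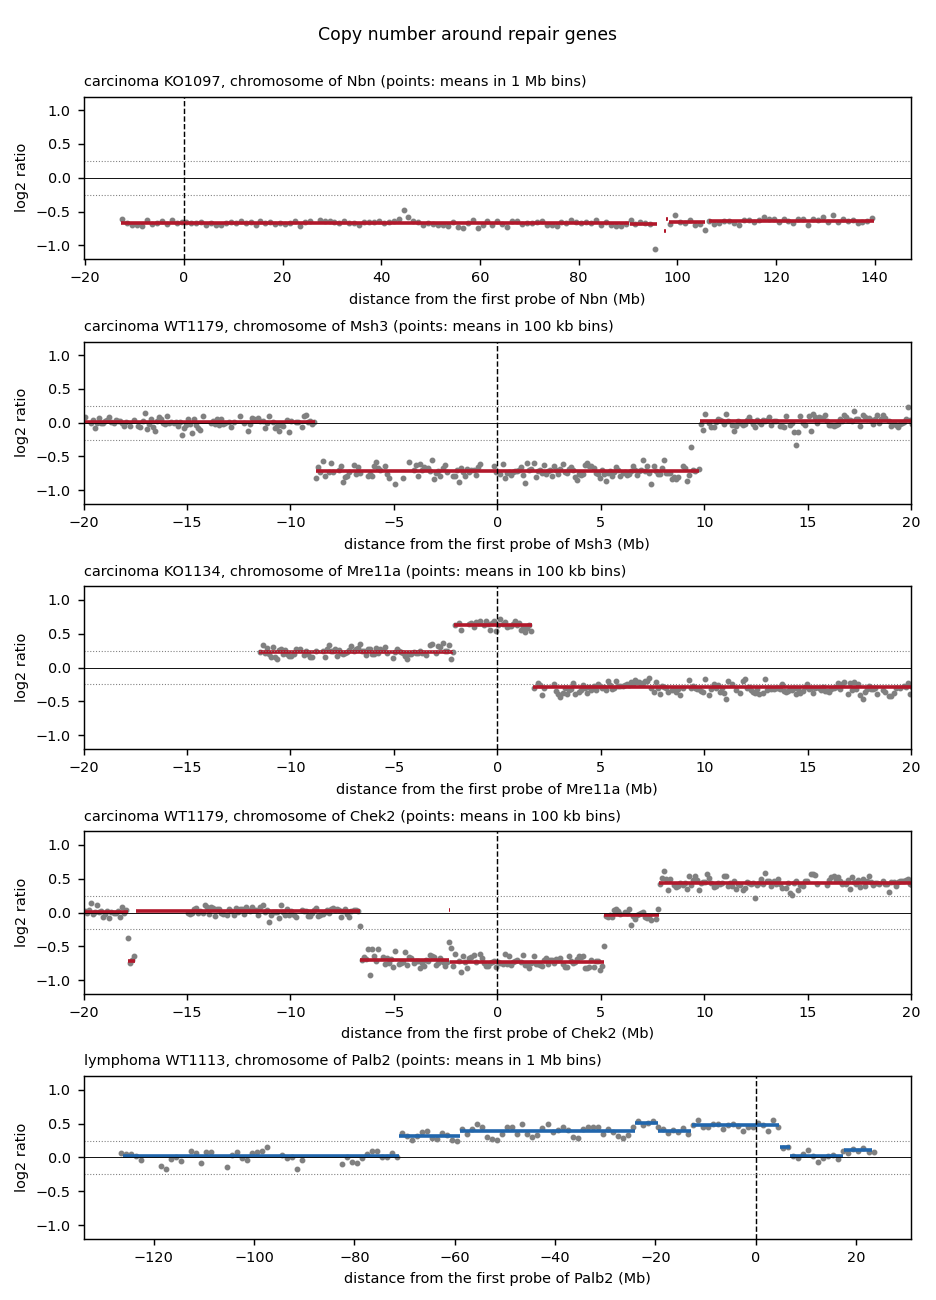
Each panel plots the log2 ratio (vertical) against the distance in Mb from the first probe of a gene (dashed line) in 1 tumour, with points for bin means and thick lines for segments. Nbn lies inside a loss of most of its chromosome in KO1097, Msh3 inside a loss of 18.5 Mb in WT1179, Mre11a inside a gain of 3.78 Mb in KO1134 with a lower level on its right, Chek2 inside a loss of 7.43 Mb in WT1179 and Palb2 inside a gain of 75.9 Mb in WT1113.

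Palb2, which links Brca1 to Brca2 in recombination, was read by 3 probes at chr7:129254070-129270180. It read 0.57 in lymphoma WT1113 and 0.41 in lymphoma WT1114, and the other 6 lymphomas lay between -0.07 and 0.11. Carcinoma KO1080 read -0.13, KO1097 read -0.09, KO1134 read 0.04 and WT1179 read -0.07. The probe at chr7:129270121-129270180 read -0.40 in KO1080 and -0.31 in KO1097, where the other probes of Palb2 lay between -0.06 and 0.06. The local level was -0.03 in KO1080 and -0.02 in KO1097. The mean was -0.06 ± 0.07 (SD, n = 4) in carcinomas and 0.14 ± 0.23 (SD, n = 8) in lymphomas, and the lymphoma mean rests on the 2 gained tumours. Palb2 was called gained in WT1113, beside 8.57% of all genes, and in WT1114, beside 7.85%.

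The gain covered 75.9 Mb in both tumours and ended at the same probe, 133995167. Its start lay at 58075000 in WT1113 and 58050012 in WT1114, which are neighbouring places on the array. Both tumours were treated wild types on slide 2, and the other 2 lymphomas of that slide read 0.11 and 0.10. The boundaries are among the 4 that these tumours share with no other tumour, and whether the tumours share cells was not tested. They differed elsewhere, with a gained segment of chromosome 15 in WT1113, where Rad1, a subunit of the checkpoint clamp, read 0.41, against 0.08 in WT1114. Palb2 was the only one of the 7 genes with a gain in a lymphoma, while 33.6% of all genes were gained in at least 1.

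Xrcc4, the partner of DNA ligase IV in end joining, was read by 27 probes at chr13:89990697-90228613. Carcinoma KO1080 read 0.02, KO1097 read -0.69, KO1134 read 0.01 and WT1179 read -0.73. In the lymphomas it lay between -0.03 and 0.09 with a median of 0.04. The carcinomas thus formed 2 tumours with a loss and 2 without, and the mean of -0.35 ± 0.42 (SD, n = 4) describes none of them. In the lymphomas the mean was 0.04 ± 0.04 (SD, n = 8).

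Msh3, which recognises small loops in mismatch repair, was read by 13 probes at chr13:92991108-93117239, 3.00 Mb from Xrcc4. Carcinoma KO1080 read 0.11, KO1097 read -0.67, KO1134 read 0.04 and WT1179 read -0.73. The lymphomas lay between 0.01 and 0.15, with a median of 0.09. Its mean was -0.31 ± 0.45 (SD, n = 4) in carcinomas and 0.09 ± 0.04 (SD, n = 8) in lymphomas. Both genes were lost together in the same 2 carcinomas. In KO1097, where 17.4% of all genes were lost, the whole chromosome 13 read -0.66 over 117 Mb. In WT1179 both genes lay in 1 segment, chr13:84225869-102761300, of 18.5 Mb with 120 named genes at -0.71. Over the 12 tumours the levels of Xrcc4 and Msh3 correlated with a Pearson r of 0.99, and the genes lay in the same called segments.

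Single probes of both genes stood apart in some tumours. The Xrcc4 probe printed second read between 0.48 and 0.80 in 7 of the 8 lymphomas and 0.07 in KO1414, and it read -0.31 in WT1179 where the gene read -0.73. The Msh3 probe printed second read 0.79 in WT1121, 0.91 in WT1405 and 0.45 in WT1420, the 3 wild types of slide 3, and 0.01 in KO1414 on the same slide. In the other 4 lymphomas it lay between 0.09 and 0.17. The probe next to it towards the start of the chromosome read 0.01 in WT1405, so the high value was that of 1 probe. With the median of the probes in place of the mean, Msh3 and Xrcc4 stayed within 1 SD of their reported levels in both tumour types.

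Xpa, the damage verifier of nucleotide excision repair, was read by 2 probes at chr4:46193546-46205897, 30.3 Mb from Nbn. Carcinoma KO1080 read -0.46, KO1097 read -0.63, KO1134 read -0.28 and WT1179 read -0.65. In the lymphomas it ran over -0.10, 0.08 and 0.18 (lowest, median and highest), so the groups did not overlap. Each carcinoma lay below each lymphoma for 10.3% of all genes. The mean was -0.51 ± 0.17 (SD, n = 4) in carcinomas and 0.07 ± 0.08 (SD, n = 8) in lymphomas, and the local level over 88 probes was -0.52 ± 0.19 in carcinomas and -0.02 ± 0.03 in lymphomas. Xpa lay in the same lost stretches of chromosome 4 as Nbn in all 4 carcinomas. Like Nbn, it was called lost in 4 of 4 carcinomas and 0 of 8 lymphomas, as were 8.17% of all genes. The call in KO1134 was lost with median centring, where Xpa read -0.22. The levels of Xpa and Nbn correlated with an r of 0.98 over the 12 tumours.

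The genotype and treatment groups were small and are described by their means. In carcinomas Nbn was -0.44 ± 0.19 (SD, n = 3) in treated knockouts and -0.66 in the single treated wild type. In lymphomas Nbn was 0.21 ± 0.03 (SD, n = 2) in treated knockouts, 0.11 ± 0.10 (SD, n = 3) in treated wild types, 0.04 in the untreated knockout and 0.05 ± 0.06 (SD, n = 2) in untreated wild types. All treated lymphomas but WT1121, which read 0.02, lay on slide 2, and all untreated ones lay on slide 3. The local level around Nbn was 0.01 ± 0.03 (SD, n = 8) in lymphomas. In carcinomas Chek2 averaged 0.10 ± 0.06 (SD, n = 3) in treated knockouts, against -0.81 in the single treated wild type. With 1 wild-type carcinoma, a difference between genotypes within the carcinomas has no replicate on the wild-type side.

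Several of the genes were lost together in single carcinomas. WT1179 had lost 5 of the 7, namely Nbn, Xpa, Msh3, Xrcc4 and Chek2, on 3 chromosomes, beside 15.2% of all genes. KO1097 had lost 4, Nbn, Xpa, Msh3 and Xrcc4, on 2 chromosomes, beside 17.4% of all genes. KO1080 had lost Nbn and Xpa, beside 10.5% of all genes. KO1134 had lost the same pair, beside 31.9% of all genes, and gained Mre11a, beside 0.952%. None of the 7 was gained in KO1080, beside 0.0247% of all genes, in KO1097, beside 0.0345%, or in WT1179, beside 5.31%. Since Nbn lies on the chromosome of Xpa, and Msh3 on that of Xrcc4, the 13 lost calls come from 7 lost stretches. The 3 gains came from 3 stretches. In the lymphomas 0 of the 7 were lost, beside 0.163% of all genes in KO1077, 0.074% in KO1111, 0.143% in KO1414, 0.991% in WT1113, 0.069% in WT1114, 0.0888% in WT1121, 0% in WT1405 and 0.0592% in WT1420. Likewise 0 of the 7 were gained in the lymphomas other than WT1113 and WT1114, beside 0.0247% of all genes in KO1077, 0.528% in KO1111, 0.952% in KO1414, 3.85% in WT1121, 21.9% in WT1405 and 0.0247% in WT1420.

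The other genes of the same pathways were counted in the same segments. Of 92 other repair genes in 6 lists, KO1080 had lost 12 (13%), KO1097 21 (22.8%), KO1134 24 (26.1%) and WT1179 18 (19.6%), near the 10.5%, 17.4%, 31.9% and 15.2% of all genes in these tumours. At least 1 carcinoma had lost 36 of the 92, beside 8709 of all 20281 genes, and 0 of the 92 were lost in a lymphoma. At least 1 lymphoma had gained 36 of the 92, beside 6823 of all genes. Gains were most numerous in WT1405, with 25 of the 92 (27.2%) beside 21.9% of all genes, and with median centring this fell to 4 of the 92. KO1097 and WT1179 had lost Rad17, the loader of the checkpoint clamp, KO1097 had lost Ercc4, an excision nuclease subunit, and KO1134 had lost Atm, which was not called with median centring, where 0 of the 92 were lost in that tumour.

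**Figure D3:**
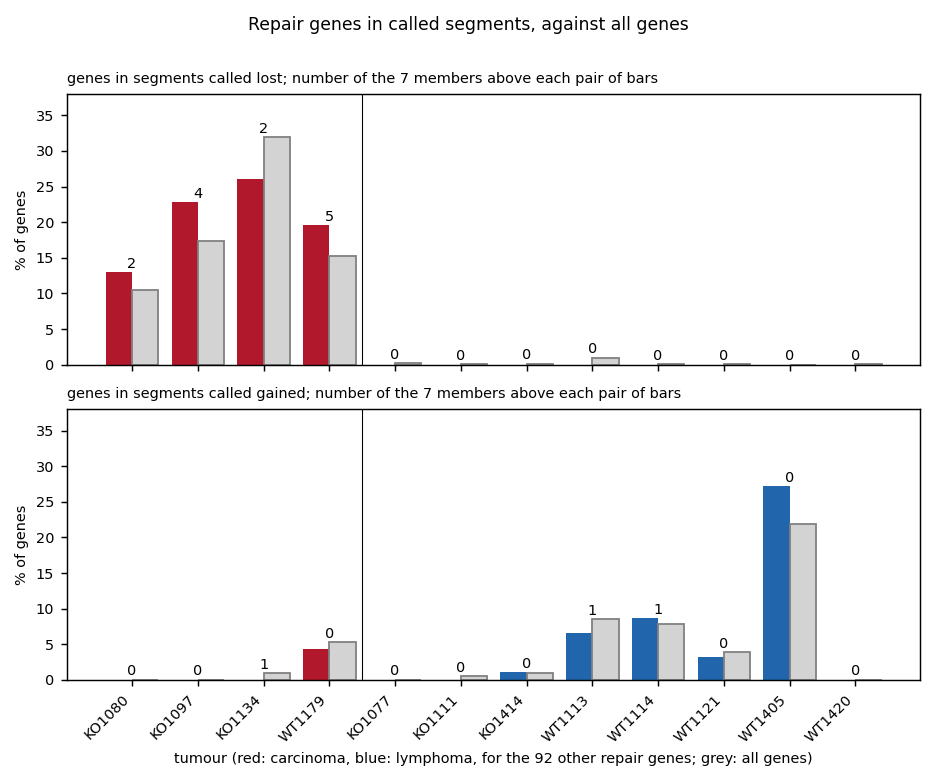
Bars show the percent of genes in segments called lost (top) and gained (bottom) in each tumour, coloured for the 92 other repair genes and grey for all 20281 genes, and the number over each pair counts the 7 described genes. The carcinomas lost between 13% and 26.1% of the other repair genes, beside 10.5% to 31.9% of all genes.

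Carcinomas were compared with lymphomas over all genes with limma, in a model with tumour type, genotype and treatment, and type cannot be told apart from slide 1 here. Of the 92 other repair genes, 12 were lower in carcinomas, 1 was higher and 79 did not pass, at an adjusted p under 0.05 over all 20281 genes. Over all genes 12.7% were lower and 0.873% higher. All 12 lower genes lay on chromosomes 4 and 12, where 12 of 12 tested repair genes and 92.5% of all 2121 genes were lower, against 0 of 80 repair genes and 3.4% of all genes on the other autosomes. The median difference was -0.12 for the 92 genes and -0.09 for all genes.

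On chromosome 4, the chromosome of Nbn and Xpa, 5 other repair genes fell. Fancg, a core subunit of the Fanconi anaemia complex, was -0.70 ± 0.24 (SD, n = 4) in carcinomas and -0.04 ± 0.12 (SD, n = 8) in lymphomas, with a limma adjusted p of 0.000394. Rad54l and Rad54b, helicase-like motors of recombination, were lower by -0.60 ± 0.08 (SE) and -0.57 ± 0.08, with limma adjusted p-values of 0.000288 and 0.000345. Rpa2, a subunit of the protein that coats single-stranded DNA, was -0.55 ± 0.19 in carcinomas and -0.09 ± 0.10 in lymphomas. Rad23b, which recruits the damage sensor Xpc, was -0.40 ± 0.19 in carcinomas and 0.10 ± 0.12 in lymphomas. Fancg and Rpa2 were each read by 1 probe. Over all 12 lower genes the limma adjusted p lay between 0.000258 and 0.0113.

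On chromosome 12, 7 repair genes fell. Fancm, the translocase of the Fanconi pathway, was -0.57 ± 0.21 (SD, n = 4) in carcinomas and 0.04 ± 0.09 (SD, n = 8) in lymphomas, with a limma adjusted p of 0.000258. Rad51l1, a recombination gene, was -0.52 ± 0.20 in carcinomas and 0.08 ± 0.08 in lymphomas over 53 probes. Mnat1, an assembly factor of the TFIIH kinase, and Gen1, a nuclease that cuts joined strands, were lower by -0.60 ± 0.08 (SE) and -0.57 ± 0.07. Mlh3, a mismatch repair subunit, and Tdp1, which removes trapped topoisomerase from DNA, were lower by -0.57 ± 0.10 and -0.51 ± 0.12. Xrcc3, another recombination gene with 1 probe, was -0.27 ± 0.39 in carcinomas and 0.30 ± 0.13 in lymphomas, with a limma adjusted p of 0.00745. The 1 gene that was higher, Gtf2h3 on chromosome 5, was read by 1 probe and was 0.10 ± 0.17 in carcinomas and -0.13 ± 0.10 in lymphomas, with a limma adjusted p of 0.0354. Its value was 0.36 in WT1179 and -0.01, 0.07 and -0.01 in KO1080, KO1097 and KO1134. With segment means, with treated tumours only, or without any 1 of WT1179, KO1097, KO1111, KO1414, WT1113 and WT1114, 0 of the 92 were higher.

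By pathway, 6 of 19 other recombination genes, 1 of 12 end joining genes and 1 of 9 mismatch repair genes were lower in carcinomas. So were 2 of 23 nucleotide excision genes and 2 of 14 crosslink repair genes, beside 12.7% of all genes. All of these lower genes lay on chromosomes 4 and 12, where 92.5% of all genes were lower. Of the 15 break sensing and checkpoint genes 0 passed, and the lowest in carcinomas was Rad17 at -0.33 ± 0.41 (SD, n = 4), against 0.00 ± 0.07 in lymphomas. The highest in carcinomas in each list were Rad1 at 0.21 ± 0.20, Brca2 at 0.14 ± 0.20, Lig4, the end joining ligase, at 0.15 ± 0.19, Pms2 at 0.03 ± 0.38, Ercc3, a TFIIH helicase, at 0.12 ± 0.01, and Slx4, a nuclease scaffold, at 0.07 ± 0.03. The lowest in the other lists were Rpa2, Tdp1, Mlh3, Mnat1 and Fancg.

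**Figure D4:**
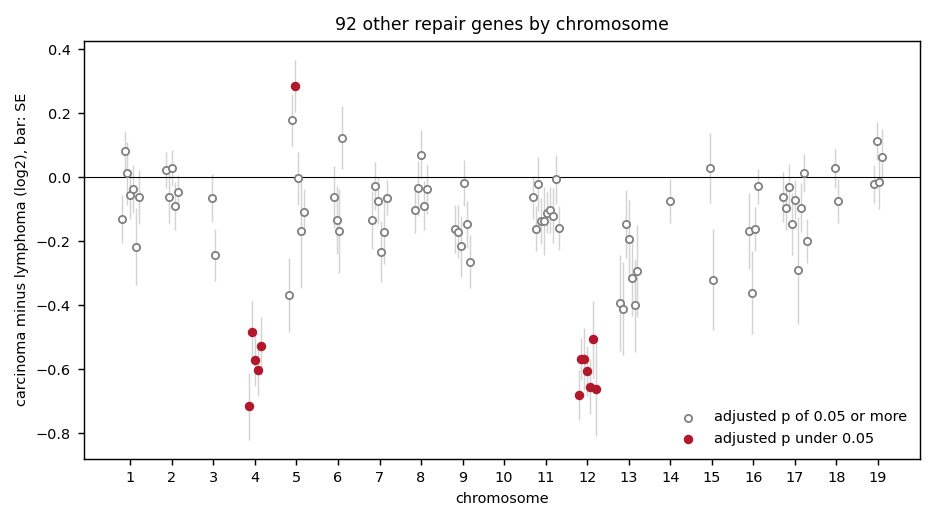
Points show the carcinoma minus lymphoma difference in log2 ratio of the 92 other repair genes, with bars for the SE, placed by chromosome, and filled where the limma adjusted p over all genes was under 0.05. The 12 filled points below 0 lie on chromosomes 4 and 12, and 1 lies above 0 on chromosome 5.

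Knockout and wild-type tumours were compared in the same model. Of the 92 other repair genes 0 passed in limma and 5 had an unadjusted p under 0.05, as did 1038 of all 20281 genes. After adjustment, over all genes 0.0542% were lower and 0.00986% higher in knockouts. Between tumours of Fe-NTA treated and untreated mice 0 of the 92 genes passed in limma, and 4 had an unadjusted p under 0.05. Over all genes 0% were lower or higher, with 2129 genes at an unadjusted p under 0.05. Without the lymphoma WT1121 the treatment comparison called 478 genes, 0 of them among the 92. WT1121 was the only treated lymphoma on slide 3, so without it treatment and slide coincide in the lymphomas and cannot be told apart. All other treated lymphomas lay on slide 2 and all untreated ones on slide 3. With slide as a fixed term and all tumours kept, 1 gene was called for treatment.

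Genes on other chromosomes with the most similar levels over the 12 tumours were found by Pearson correlation as a description, since the 12 values share arrays, centring and losses. For Nbn they included Bzw2 (r = 0.99), and for Xpa they were Sec23a (r = 0.99) and Sh3yl1 (r = 0.99), all on chromosome 12. For Msh3 and Xrcc4 they were the transcript ENSMUST00000146679 and Hdac1, both on chromosome 4, with r between 0.92 and 0.95. Mre11a was most similar to Rgs17 (r = 0.92) and Syne1 (r = 0.92) on chromosome 10, both also highest in KO1134. Chek2 was most similar to Wnt7b (r = 0.89) and Parvb (r = 0.88) on chromosome 15, both also lowest in WT1179. Palb2 was most similar to ENSMUST00000146702 (r = 0.95) and Pank2 (r = 0.92) on chromosome 2, which were highest in WT1113. Across the 2 pairs of linked genes, Nbn and Msh3 had an r of 0.83.

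Break points were counted as boundaries between segments, to set the losses of repair genes beside the number of breaks in each tumour. The count depended on the rule. Every boundary counted, WT1113 had 132, of which only 9 were steps of at least 0.25. KO1414 followed with 48, WT1179 with 44, KO1097 with 43, KO1077 with 37, KO1111 with 35, KO1134 with 32, KO1080 with 24, WT1114 with 19, WT1420 with 16, WT1121 with 15 and WT1405 with 6. Knockout tumours had 13 to 25 of these on chromosome 4, of which 0 to 4 lay outside the stretch around Mutyh. Each pair of knockout tumours shared 14 to 26 boundaries within 3 probes, so the counts of knockout tumours include many of the same places.

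Outside the antigen receptor loci, an interval of chromosome 14 and the stretch around Mutyh, and with steps of at least 0.25, WT1179 had the most break points, 36. It was followed by KO1097 with 18 and KO1134 with 13, and KO1080 had 2. The lymphomas had 2 to 6 each. By this count, chosen after the data were seen, the carcinoma with the most break points was also the one that had lost the most of the 7 genes. The genes were chosen by their calls, and the count includes the ends of the segments that hold Chek2, Msh3 and Xrcc4. The match therefore cannot show a link, and a link was not tested. KO1080 and KO1134 had lost 2 of the 7 each, with 2 and 13 break points, so equal numbers of lost genes went with different counts. In WT1179, 26 of its 44 boundaries lay on the chromosome of Chek2 and 4 on that of Msh3 and Xrcc4.

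**Figure D5:**
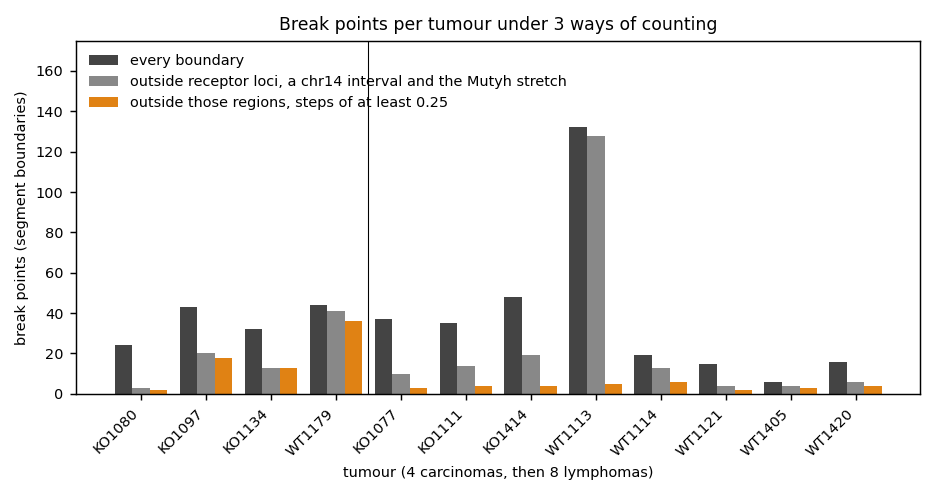
Bars count the segment boundaries of each tumour, all of them (dark), outside the receptor loci, a chromosome 14 interval and the stretch around Mutyh (grey), and among those only steps of at least 0.25 (orange). WT1113 has 132 boundaries but 5 orange ones, and WT1179 has the highest orange bar at 36.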

How the data were processed

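The 7 genes, the repair gene lists and the alternatives were chosen with earlier results of these data known. Per the labels' protocols tumour DNA was labelled with Cy5 and reference DNA with Cy3. The deposited intensity columns used here hold red and green signals that Agilent Feature Extraction 10.7.1.1 had processed (background subtraction and dye normalization, build mm9), per the file headers. The deposited log10 ratio column and the deposited series table, which matched the log2 of red over green on each array (r of at least 0.99994, column medians between -0.02 and 0.02, no centring), were alternatives. Each array held 174305 spots that are not controls, for 170305 probes, of which 161460 are autosomal with a median spacing of 10.84 kb. At least 99.856% of spots were well above background, with a signal to noise ratio of 63.6 or more, and the number of arrays limits precision.

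Outlier spots were left out, spots of a probe averaged, and log2 ratios centred on the mode of autosomal probes (kernel bandwidth 0.05). Segments were found by exact penalised least squares (penalty factor 10 on the noise variance and the natural log of a chromosome's probe count, at least 5 probes), and called at 0.25. The array noise SD was 0.115 to 0.171. Gene names with probes on more than 1 chromosome were left out. limma 3.58.1 in R 4.3.3 fitted type, genotype and treatment over 20281 genes, with Benjamini-Hochberg adjustment. Both steps were tested on simulated data. Of 105 listed repair genes, 6 had no value here. Named genes were the 7, every listed gene that passed, the lowest and highest of each list in carcinomas, the 2 most similar genes per member, and Mutyh; some are not reported here. Other names in the text, such as Atm and Ercc4, were chosen after their values were seen. Each tumour carries its own animal number, and p-values measure the spread between these tumours. They count WT1113 and WT1114 as separate tumours, and whether these share cells was not tested. Alternatives covered centring, background, thresholds, penalties, probe minimum, window, slide and leaving out each tumour. Exon and intron positions were not analysed here.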

Additional observations from a re-analysis of the deposited data

Results flagged for a closer look

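Break points were tested for a tumour apart by Dixon's criterion in 2 sets, the 4 carcinomas and the 8 lymphomas, of which chance marks about 5%. Lymphoma WT1113 had 132 break points, against 48 in the next highest lymphoma. Levels of the 7 genes were not tested in this way. No explanation of the count was tested.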

How the results depend on the processing

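Of 13 lost calls, KO1134 gives 2 (Nbn and Xpa), both absent with median centring or a threshold of 0.4, and WT1179 gives 5, so that leaving out 1 tumour gave 8 (without WT1179) to 13; the 3 gains became 2 to 3. The 13 repair genes called between tumour types became 8 when only the 57 genes with at least 3 probes were tested, and 10 to 18 without 1 tumour. The other alternatives moved neither the total of calls for the 7 genes nor the limma count for the 92 by over 1.5 times. Some calls of the 7 did change. The gain of Palb2 in WT1114 was absent at 0.4, and at 0.15 Chek2 was called lost in KO1414 and gained in WT1405. Of the 92, 0 were called for genotype or treatment under each alternative run. The genotype comparison among treated tumours only was not run. Of the 92, the 24 lost in KO1134 became 0 with median centring or a threshold of 0.4, and the 25 gained in WT1405 became 4 with either and 40 at 0.15. At 0.4 the gains became 1 in WT1113 (as reported 6) and 0 in WT1114 (as reported 8), WT1121 (as reported 3) and KO1414 (as reported 1). At 0.15 they became 15 in KO1111 (as reported 0), 7 in KO1414 and 13 in WT1113. WT1113 had 334 break points with penalty 5, 34 with penalty 20, 9 with steps of at least 0.25, 18 with changes of call and 5 with large steps outside the named regions. WT1179 had 73 with penalty 5 and 83 with a shortest segment of 1 probe. The cause of these shifts was not tested. The last 4 rules (large steps, changes of call, large steps outside regions, shortest segment) and probe medians were chosen after seeing the data. No paired analysis was possible because the tumours carry animal numbers that no 2 groups share. Xpa, Chek2 and Palb2 rest on 2 or 3 probes, and 12 arrays limit the comparisons.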
